A study of Homo sapiens with 9 samples.

Results

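The solute carriers (SLC) are a large group of membrane proteins that move nutrients, ions, metabolites and drugs across the plasma membrane and the membranes of organelles. The genes described here are those with an SLC family symbol and a single locus that reached at least 1 FPKM (fragments per kilobase of transcript, scaled to the mapped fragments of the library) in at least 1 of 5 drug-treatment libraries of NB4 cells. The rule gave 173 genes out of 337 solute carrier genes with 1 locus. The other 164 either stayed under 1 FPKM in those 5 libraries or had no usable value in them. SLC39A7 and SLC44A4 had more than 1 locus and were left out. SLC4A8, SLC30A4 and SLC25A26 had no usable value in the treatment table. The level in the treatment libraries chose the members, so a member that reached 1 FPKM in a single treatment had to differ there. Members were thus chosen by their measured FPKM in the treatment table, and the knockout table had no part in it. Near the limit, SLC5A10, SLC37A3 and SLC14A2 were just inside with highest values of 1.17, 1.32 and 1.44 FPKM, and SLC18A1, SLC27A6 and SLC16A4 were just outside with 0.911, 0.606 and 0.601 FPKM.

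Solute carriers work as uniporters, symporters or exchangers, and most draw on ion or substrate gradients in place of ATP. Growing leukaemia cells depend on them for amino acids, glucose, phosphate, nucleosides and iron. Maturing granulocytes and macrophages are known for a different set, which includes carriers of the lysosome membrane and exporters of lactate and iron. By family, the 173 members comprised 34 mitochondrial carriers (SLC25), 24 amino acid transporters, 21 metal transporters, 20 inorganic ion transporters, 16 sugar transporters, 16 nucleotide sugar transporters, 14 organic ion and peptide transporters, 9 monocarboxylate transporters, 8 transporters of vitamins, choline and haem, 6 fatty acid and acetyl-CoA transporters, 4 nucleoside transporters and 1 urea transporter. The classes follow the family number, so the multivitamin transporter SLC5A6 sits with the sugar transporters and the purine base transporter SLC43A3 with the amino acid transporters.

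All 9 libraries were made from NB4, an established human cell line of acute promyelocytic leukaemia that carries the PML-RARA fusion. Cells of the treatment series received DMSO (the vehicle), MC_2580 (an inhibitor of the histone demethylase LSD1, also called KDM1A, whose dose the labels do not give), retinoic acid (RA) at 0.01 uM, RA at 1 uM, or MC_2580 together with RA at 0.01 uM (the combination) for 24 h, with 1 library each. Untreated cells of the genotypes LSD1 KO and WT gave 2 libraries each, and the labels state neither the number of KO clones nor whether replicates came from separate cultures. The spread behind each p-value is therefore that of these 4 libraries and may be technical. Treatment contrasts have no replicate and are called at a 2-fold ratio of FPKM + 1, with no test. Differences are log2 differences of FPKM + 1 throughout.

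The LSD1 gene, listed under its older symbol AOF2, had 49.8 and 66.6 FPKM in WT and 14.0 and 16.8 in KO. The promyelocyte marker MPO was abundant, at 5300 FPKM in DMSO, while ELA2, which encodes neutrophil elastase, lay at or under 0.242 FPKM in every library. Across the libraries 11974 to 13365 loci reached 1 FPKM. The reads behind 1 FPKM, read from the spacing of low values, were 0.732 to 0.901 times those of DMSO in the other treatment libraries and 1.04 to 1.66 times those of WT 1 in KO 1, KO 2 and WT 2. Between replicate libraries, the 2-fold criterion marked 5 of 161 members in WT and 3 of 162 in KO, where it marked 3.79% and 3.41% of all protein-coding genes with 1 locus. Summed over 7 erythroid markers, the level was 1.68 to 4.43 FPKM, with 3 to 6 of the 7 at 0 in each library.

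Most members were present in every library. Of the 173, 142 reached 1 FPKM in all 9 libraries, 91 averaged at least 10 FPKM, and the median of the means was 11.0 FPKM. The mitochondrial phosphate carrier SLC25A3 was the most abundant, at 808 to 870 FPKM in the treatment series and 610 to 668 in the knockout series. The ADP/ATP carriers SLC25A5 and SLC25A6 came next, with 519 to 609 and 271 to 523 FPKM over all libraries, although reads of such closely related carriers could be shared. The glutamine transporter SLC1A5 (179 to 345 FPKM) and the purine base transporter SLC43A3 (94.2 to 209 FPKM) followed. By class, the median of the mean levels was highest for amino acid transporters (18.4 FPKM) and mitochondrial carriers (17.0 FPKM), and lower for monocarboxylate (2.60 FPKM) and sugar transporters (3.32 FPKM). The share of each family that was expressed also differed: 34 of 43 mitochondrial carriers and 16 of 22 nucleotide sugar transporters were members, against 14 of 53 organic ion and peptide transporters.

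MC_2580 alone was compared with DMSO to see what the LSD1 inhibitor does without RA. A single member passed 2-fold, and the family otherwise stayed near its DMSO levels. SLC1A3, a glutamate transporter, stood at 0.437 FPKM in DMSO and 2.47 FPKM with MC_2580, a log2 difference of 1.27. Thus 1 of 163 members was higher and 0 were lower, while 0.738% and 0.0104% of 9617 protein-coding genes, and 2.22% and 1.73% of all 13449 loci, were higher and lower. The fatty acid transport protein SLC27A1 came closest to the criterion, at 2.93 and 6.60 FPKM (log2 difference 0.95). SLC7A7, the light chain of a cationic amino acid exchanger, followed at 0.407 and 1.56 FPKM (0.87), and SLC15A3, a peptide and histidine carrier of lysosomes, at 0.432 and 1.47 FPKM (0.79). In all, 5 members reached 1 FPKM in only 1 of these libraries, so the filter required those to differ. SLC1A3, the single member past 2-fold, was among them, as were SLC7A7 and SLC15A3, which entered only through MC_2580, where they were high. The cystine importer SLC7A11 was the lowest, at 3.94 in DMSO and 1.93 with MC_2580 (-0.76). In the authors' deposited table, SLC1A3 and SLC7A7 were the 2 of 170 members called significant for MC_2580, where 1.06% of loci with a test were.

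With RA alone some members were higher and some lower, while most passed 2-fold in neither direction. Among the members above 2-fold were carriers of fructose, choline, iron, nucleosides and lactate. Several amino acid transporters and a phosphate transporter were among the lower ones, with carriers of other substrates beside them, such as the glucose transporter SLC2A3 (-1.13 at 0.01 uM) and the vitamin C transporter SLC23A1 (-1.16). Calcium exchangers lay on both sides (SLC24A6 at 1.19, SLC24A3 at -1.11). SLC24A3 and SLC23A1, however, were under 1 FPKM at both RA doses and entered the contrasts only through DMSO, where they were high. At 0.01 uM RA, 10 of 166 members (6.02%) were higher and 9 (5.42%) were lower than DMSO, where 4.88% and 2.78% of 9739 protein-coding genes, and 5.42% and 3.99% of all loci, passed. At 1 uM RA, 12 of 167 members (7.19%) were higher and 9 (5.39%) lower, beside 6.5% and 2.7% of 9775 protein-coding genes and 6.63% and 4.09% of all loci. The share of higher members was thus close to the background at both doses. Of the members past 2-fold, 2 higher and 3 lower ones at 0.01 uM, and 1 higher and 3 lower ones at 1 uM, reached 1 FPKM only in the library of that contrast where they were high, so the filter required those to differ. The medians over members were -0.04 and 0.00. Both contrasts share the DMSO library, and a departure of that library would enter both.

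SLC2A5, which encodes the fructose transporter GLUT5, had the largest difference of any member. It stood at 8.82 FPKM in DMSO, 9.60 with MC_2580, 197 with RA 0.01 uM, 390 with RA 1 uM and 292 in the combination. The 3 libraries with RA lay far above the others, with log2 differences to DMSO of 4.34, 5.32 and 4.90. Among untreated cells SLC2A5 stood at 13.9 and 9.10 FPKM in WT and at 15.9 and 12.2 in KO, with overlapping ranges. Its locus lies at chr1:9019594-9052257 in the hg18 coordinates of the tables.

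The choline transporter SLC44A1 stood at 15.1 FPKM in both DMSO and MC_2580, at 40.0 and 74.8 with RA 0.01 and 1 uM, and at 50.9 in the combination. The iron exporter SLC40A1 (ferroportin) stood at 8.18 in DMSO, 6.83 with MC_2580, 27.4 and 22.4 with the low and high RA dose, and 24.4 in the combination. Both were at least 2-fold above DMSO in every library with RA. SLC29A1, the equilibrative nucleoside transporter ENT1, gave 75.3, 73.3, 163, 162 and 136 FPKM in the same order of libraries. SLC16A3, the lactate exporter MCT4, gave 114, 131, 269, 295 and 260 FPKM. SLC24A6, a sodium/calcium exchanger of mitochondria named SLC8B1 in current RefSeq, gave 18.3, 18.3, 43.2, 49.3 and 40.3 FPKM. SLC29A1 was the exception in the combination, where its log2 difference to DMSO was 0.84 and so under the criterion.

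Other members on the higher side passed in some or all of the RA libraries. The haem transporter SLC48A1 stood at 8.96 FPKM in DMSO and 22.5 with RA 0.01 uM, but at 18.0 with RA 1 uM and 10.8 in the combination. SLC12A9, a member of the chloride cotransporter family, stood at 11.1, 20.5, 25.3 and 29.6 FPKM in the same 4 libraries, and passed 2-fold with RA 1 uM and the combination. The calcium exchanger SLC24A4 was near 0 in DMSO (0.0166 FPKM) and stood at 1.71, 1.26 and 3.49 FPKM in the 3 libraries with RA, past 2-fold in each. It was at or under 0.0374 FPKM in MC_2580, WT and KO cells. Inorganic ion transporters were the class with the most higher members at 1 uM RA, 4 of 20, with a class median of 0.42. Over all loci 6.63% were higher in that contrast. The class was picked as the highest of 12, and whether its count departs from that share was not tested. SLC24A4, 1 of the 4, entered the contrast only through the RA library, where it was high.

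Of the lower members, SLC7A5 and SLC3A2 are the light and heavy chains of the same large neutral amino acid exchanger. SLC7A5 stood at 166 FPKM in DMSO, 169 with MC_2580, 58.6 and 47.7 with RA 0.01 and 1 uM, and 40.5 in the combination. SLC3A2 stood at 174, 160, 79.4, 68.8 and 55.5 FPKM in the same order. All 3 RA libraries lay below both libraries without RA for either chain. The phosphate transporter SLC20A1 showed the same arrangement, at 146, 119, 48.8, 48.9 and 47.4 FPKM. So did SLC25A29, a mitochondrial carrier of basic amino acids, at 14.6, 17.6, 4.78, 4.44 and 5.81 FPKM. The neutral amino acid transporter SLC1A4 was lowest with RA alone (10.2 and 9.80 FPKM, against 32.5 in DMSO) and stood at 18.4 FPKM in the combination.

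The values of SLC7A5 and SLC3A2 need a further measurement beside them. In the knockout series, replicate 1 stood well below replicate 2 in both genotypes: SLC7A5 at 67.3 and 149 FPKM in WT and at 64.2 and 142 in KO. SLC3A2 gave 97.5 and 177 in WT and 84.3 and 166 in KO. The log2 difference between replicates was -1.13 for SLC7A5 in each genotype, a size that compares with -1.49 and -1.78 for the 2 RA doses. The multivitamin transporter SLC5A6 differed in the same direction, at 32.4 and 71.3 FPKM in WT and 27.9 and 56.8 in KO. What set the replicates apart was not tested. SLC20A1 differed between WT replicates in the opposite direction (153 and 94.0 FPKM).

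**Figure D1:**
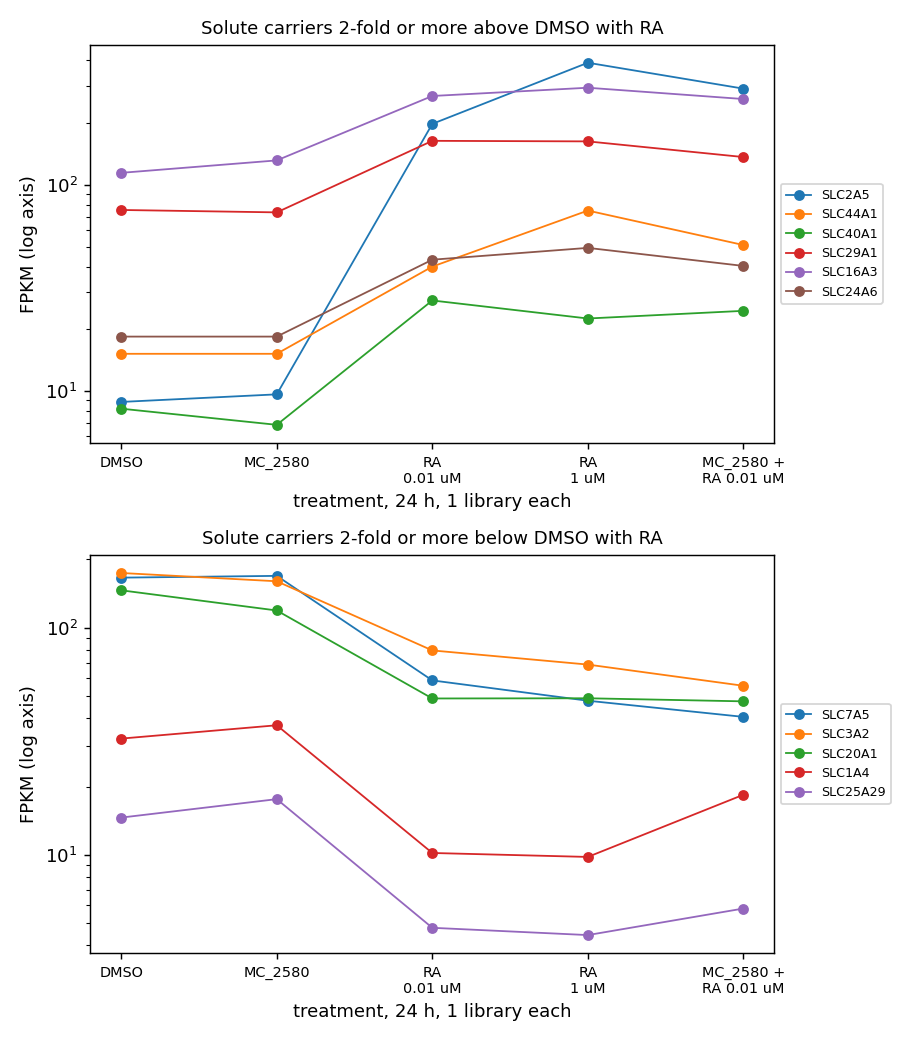
FPKM on a log axis in the 5 treatment libraries for 6 members at least 2-fold above DMSO (upper panel) and 5 at least 2-fold below it (lower panel) with RA; each point is 1 library and lines only join the points of a gene. SLC2A5 goes from 8.82 FPKM in DMSO to 390 with RA 1 uM, and SLC7A5 from 166 to 47.7.

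Promoter sequences are shown for SLC2A5, the member with the largest difference, and for SLC7A5, SLC3A2 and SLC20A1, which were lower together in the RA libraries. They are from RefSeq on GRCh38.p14, cover 250 bases before the annotated start, and are written 5′ to 3′ on the strand of the gene. The windows are chr1:9069636-9069885 (minus strand) for SLC2A5, chr16:87869508-87869757 (minus strand) for SLC7A5, chr11:62881449-62881698 (plus strand) for SLC3A2 and chr2:112645689-112645938 (plus strand) for SLC20A1. Capitals mark matches on either strand to 3 motifs: TGATGNAA, the C/EBP-ATF element of amino acid response genes (TTCCATCA in SLC2A5 is its reverse complement); CACGTG, an E-box; and TGACNNNGC, the core of the antioxidant response element, which SLC20A1 holds as GCTGCGTCA and GCGGGGTCA on the other strand.
SLC2A5: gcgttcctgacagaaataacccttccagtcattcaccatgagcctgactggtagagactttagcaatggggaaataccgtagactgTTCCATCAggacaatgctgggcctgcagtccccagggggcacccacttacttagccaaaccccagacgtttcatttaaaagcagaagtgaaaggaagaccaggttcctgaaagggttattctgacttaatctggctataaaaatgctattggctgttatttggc
SLC7A5: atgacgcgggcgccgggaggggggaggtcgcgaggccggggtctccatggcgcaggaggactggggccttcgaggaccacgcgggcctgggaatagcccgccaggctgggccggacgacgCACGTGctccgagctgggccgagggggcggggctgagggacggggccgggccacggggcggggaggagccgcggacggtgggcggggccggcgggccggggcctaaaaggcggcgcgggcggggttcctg
SLC3A2: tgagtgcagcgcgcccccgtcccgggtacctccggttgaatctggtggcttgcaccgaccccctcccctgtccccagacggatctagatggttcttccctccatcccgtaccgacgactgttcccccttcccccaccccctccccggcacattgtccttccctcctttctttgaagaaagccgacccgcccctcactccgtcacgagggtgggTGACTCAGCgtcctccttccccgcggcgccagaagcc
SLC20A1: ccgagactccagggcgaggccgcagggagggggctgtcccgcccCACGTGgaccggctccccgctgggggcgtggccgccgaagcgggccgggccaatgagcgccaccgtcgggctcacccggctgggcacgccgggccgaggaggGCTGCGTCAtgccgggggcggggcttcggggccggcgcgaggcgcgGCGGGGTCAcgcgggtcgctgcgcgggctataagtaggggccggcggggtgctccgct
In the printed bases SLC7A5 and SLC20A1 each hold 1 E-box, SLC3A2 holds TGACTCAGC, and SLC20A1 holds 2 reverse matches of the antioxidant core. Beyond the printed bases, SLC3A2 also holds TTACATCA, a reverse match of TGATGNAA, after the start. SLC7A5 also holds TGACGCAGC, a match of the antioxidant core that spans the start. In windows that also take in 50 bases after the start, TGATGNAA was found in 3.67% of 27305 RefSeq promoters and in 8 of 138 members with a window. CACGTG was found in 7.43% and 17 of 138, and TGACNNNGC in 13.6% and 25 of 138. The strings searched under the names DR5 and DR2 were found in 0.0696% and 0.125% of promoters and in 0 of 138 member windows. Their half-sites lacked the leading base, so the spacing was shorter than in the DR5 and DR2 direct repeats bound by RA receptors. Those repeats were not searched, and these counts say nothing about them. A match describes the letters only, and no match says nothing about binding elsewhere.

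The 2 RA doses were compared to see how the family differs with dose. A single member passed 2-fold between them. SLC2A3, the high-affinity glucose transporter GLUT3, stood at 12.2 FPKM with RA 0.01 uM and 28.9 with RA 1 uM, a log2 difference of 1.18. Its level in DMSO was 27.9 FPKM and in the combination 30.4, so the library of RA 0.01 uM alone stood apart. SLC2A14, a near copy of SLC2A3 that can share its reads, had the same order at 1.27, 0.571, 1.40 and 1.49 FPKM in DMSO, RA 0.01 uM, RA 1 uM and the combination. In all, 1 of 162 members was higher at 1 uM and 0 were lower, where 0.75% and 0.177% of 9598 protein-coding genes, and 1.93% and 1.68% of all loci, passed. SLC2A5 (0.98) and SLC44A1 (0.89) came just short of 2-fold.

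Against DMSO, the combination of MC_2580 and RA 0.01 uM had the largest number of members past 2-fold. Of 170 members, 23 (13.5%) were higher and 18 (10.6%) lower. The background was 9.37% higher and 3.42% lower among 9929 protein-coding genes, and 9.05% and 4.64% among all loci. Amino acid transporters made up 6 of the 18 lower members, and the class median was -0.39. Inorganic ion transporters made up 6 of the 23 higher ones, with a class median of 0.68. Between these 2 libraries, 8 of the higher members reached 1 FPKM in the combination and not in DMSO, and 3 of the lower ones in DMSO and not in the combination, so they entered the contrast only through the library where they were high.

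Among amino acid transporters, the lower members of the combination were SLC7A5 (-2.01), SLC3A2 (-1.63), SLC7A2 (-1.23), SLC43A3 (-1.10), SLC43A1 (-1.06) and SLC38A1 (-1.06). SLC7A2, a cationic amino acid transporter, stood at 13.4 FPKM in DMSO, 11.2 with MC_2580, 7.97 and 6.25 with RA 0.01 and 1 uM, and 5.13 in the combination. SLC43A3 stood at 203 FPKM in DMSO, 186, 180 and 178 in the 3 single treatments, and 94.2 in the combination. The combination library alone was low for SLC43A3, and likewise for SLC1A5, at 340, 314, 334 and 336 FPKM before and 216 in the combination. SLC38A1, a glutamine and neutral amino acid symporter, gave 22.6, 15.0, 21.1, 17.8 and 10.3 FPKM. Higher in this class were SLC43A2 (2.08), SLC7A7 (1.54) and SLC1A3 (1.06).

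SLC27A2, a very-long-chain acyl-CoA synthetase of the fatty acid transport family, stood at 35.1 FPKM in DMSO, 35.8 with MC_2580, 18.3 and 16.0 with the RA doses, and 11.3 in the combination. SLC22A16, a carnitine and organic cation transporter, gave 9.82, 7.51, 9.70, 8.20 and 4.20 FPKM. The equilibrative nucleoside transporter SLC29A2 gave 36.7, 33.1, 37.5, 32.0 and 18.4 FPKM, which at -0.96 missed the criterion. For SLC22A16 and SLC29A2 only the combination library was low, as for SLC43A3. Of the metal transporters, SLC39A14, a zinc and iron importer, was at 14.8 FPKM in DMSO and 6.08 in the combination (-1.16). The endosomal iron transporter SLC11A2 was at 14.3 and 14.4 FPKM. The lactate and pyruvate transporter SLC16A1 (MCT1) gave 59.3, 54.3, 39.1, 34.6 and 32.0 FPKM in the 5 libraries and did not pass (-0.87), unlike SLC16A3 of the same family. The folate carrier SLC19A1 gave 14.3, 15.6, 12.3, 11.6 and 8.04 FPKM (-0.76).

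**Figure D2:**
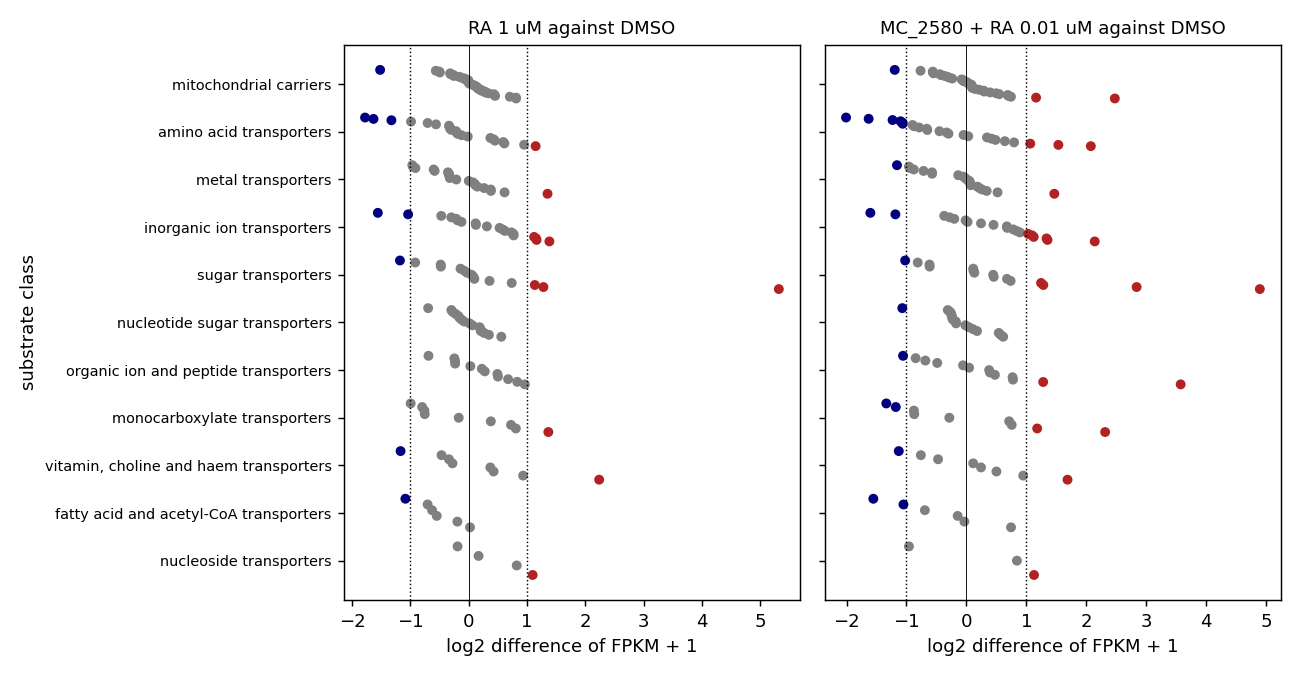
Log2 difference of FPKM + 1 for each tested member (1 point) by substrate class, for RA 1 uM (left) and the combination (right) against DMSO; dotted lines mark 2-fold, with points beyond them in red or blue, and the urea transporter SLC14A2 is not drawn. Nucleotide sugar transporters lie between -1.07 and 0.62 in the combination, while the sugar transporter SLC2A5 reaches 4.90.

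In some classes few members passed 2-fold in any treatment against DMSO. Over all loci, 9.05% were higher and 4.64% lower in the combination. The shares were 5.42% and 3.99% with RA 0.01 uM, and 6.63% and 4.09% with RA 1 uM. Whether the small counts of these classes differ from those shares was not tested. Of 16 members classed by family number as nucleotide sugar transporters, 1 passed 2-fold in the combination and 0 with either RA dose. The 1 was SLC35F2, at 46.0 FPKM in DMSO and 21.4 in the combination, and the class name need not describe what it carries. Of 34 mitochondrial carriers, 2 were higher and 1 lower in the combination. SLC25A37, the mitochondrial iron importer mitoferrin, was at 28.4 FPKM in DMSO, 25.6, 24.3 and 29.6 in the single treatments, and 16.3 in the combination. Of 21 metal transporters, SLC40A1 was the 1 higher member in every RA library.

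The combination was also set against RA 0.01 uM alone, which asks what the inhibitor adds to a low RA dose. Here the higher members outnumbered the lower ones, 12 to 1 of 168 (7.14% and 0.595%). The background was 4.61% and 0.367% among 9820 protein-coding genes and 5.06% and 1.92% among all loci. Lysosomal, mitochondrial and plasma membrane carriers were among the higher members. SLC22A16 was the single lower member. Of the 12 higher ones, 5 (SLC15A3, SLC1A3, SLC7A7, SLC14A2 and SLC45A3) were under 1 FPKM with RA 0.01 uM and entered the contrast only through the combination, where they were high. Against RA 1 uM, 10 of 167 members were higher and 0 lower, where 3.36% and 0.48% of 9797 protein-coding genes, and 4.07% and 1.84% of all loci, passed. The same 5 genes entered that contrast only through the combination. Both contrasts share the combination library.

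SLC15A3 had the largest difference, with 0.432 FPKM in DMSO, 1.47 with MC_2580, 0.297 and 0.498 with RA 0.01 and 1 uM, and 16.1 in the combination. The log2 difference to RA 0.01 uM was 3.72. SLC2A6, the lysosomal hexose transporter GLUT6, stood at 2.50, 4.87, 5.82, 6.67 and 24.1 FPKM in the same order (1.88). SLC25A20, which brings acylcarnitines into mitochondria for fatty acid oxidation, stood at 7.38, 6.52, 13.0, 13.7 and 45.7 FPKM (1.74). In each of these 3 genes the combination library was above the other 4 treatment libraries by a wide margin.

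SLC16A6, a member of the monocarboxylate transporter family, stood at 0.961, 1.57, 2.12, 2.24 and 8.77 FPKM, a log2 difference to RA 0.01 uM of 1.65. SLC43A2, a facilitative transporter of large neutral amino acids, stood at 1.21, 1.62, 2.94, 3.89 and 8.33 FPKM (1.24). For both, the libraries were ordered DMSO, MC_2580, RA 0.01 uM, RA 1 uM, combination. SLC45A4, a proton-coupled transporter family member, gave 1.57, 2.11, 1.46, 1.33 and 5.10 FPKM (1.31). The urea transporter SLC14A2 reached 1 FPKM in the combination alone, at 1.44 FPKM.

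In SLC1A3, SLC7A7 and SLC27A1, both libraries with MC_2580 were above the 3 without it. SLC15A3, SLC25A24 and SLC25A30, among others, had that order too. SLC1A3, SLC7A7 and SLC15A3 reached 1 FPKM only in the treatment libraries with MC_2580 and are members only through them. SLC1A3 stood at 2.47 FPKM with MC_2580 and 2.01 in the combination, and at 0.437, 0.123 and 0.0790 in DMSO, RA 0.01 uM and RA 1 uM. SLC7A7 stood at 1.56 and 3.08 FPKM with the inhibitor and at 0.407, 0.327 and 0.258 without it. SLC27A1 stood at 6.60 and 5.59 FPKM with the inhibitor and at 2.93, 1.3 and 1.41 without it. For SLC1A3 and SLC27A1 the RA libraries were lower than DMSO and the combination was near MC_2580 alone. SLC45A3 gave 3.51 and 2.80 FPKM with the inhibitor and 2.51, 0.801 and 0.549 without it.

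**Figure D3:**
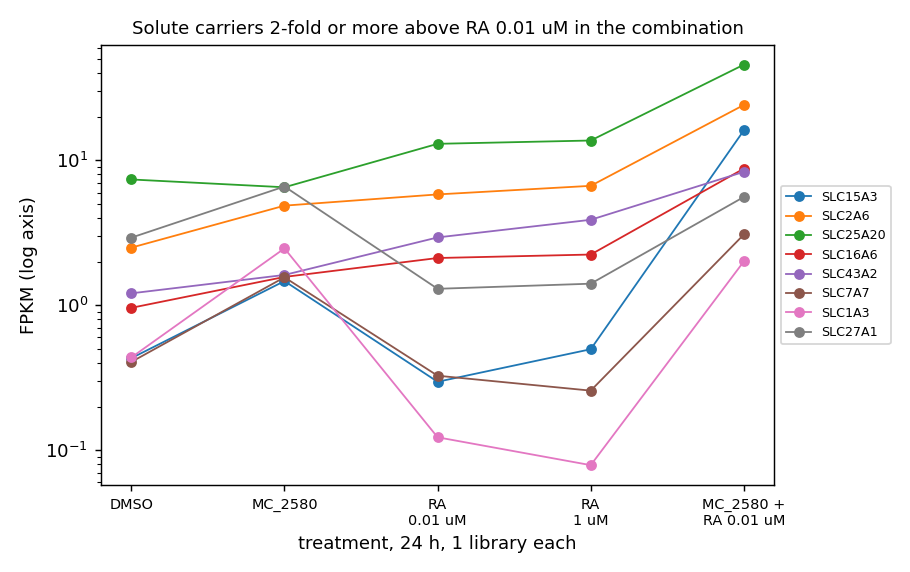
FPKM on a log axis in the 5 treatment libraries (1 point each) for 8 members at least 2-fold above RA 0.01 uM in the combination. SLC15A3, SLC2A6, SLC25A20, SLC16A6 and SLC43A2 peak in the combination, while SLC1A3 and SLC27A1 are as high or higher with MC_2580 alone.

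In the authors' deposited table, 14 of 171 members were called significant for RA 0.01 uM against DMSO, where 4.55% of loci with a test were. For RA 1 uM it was 16 of 171, beside 5.08% of loci, and for the combination against DMSO 25 of 171, beside 6.44%. Against RA 0.01 uM the authors' deposited table called 8 of 172 members in the combination, beside 2.83% of loci, and against RA 1 uM 8 of 171, beside 2.31%. Between the RA doses it called 0 of 171 members and 1.07% of loci. Those calls rest on 1 library against another. Members had to reach 1 FPKM in a treatment library, while loci with a test did not. For RA 0.01 uM against DMSO, 20750 loci had a test and 13594 reached 1 FPKM in either library. The shares beside the authors' calls, here and for MC_2580 and KO, are thus of an unlike set, and a higher share among members cannot be read as an excess.

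LSD1 KO cells were compared with WT cells in a separate table whose values had no part in choosing the members. Of 164 members tested in limma, 0 passed an adjusted p of 0.05, and 17 had an unadjusted p under it, 9 higher and 8 lower in KO. Over all 13157 loci 0.114% passed the adjusted and 7.16% the unadjusted level. In 30 members both KO libraries lay above both WT libraries and in 37 they lay below, while 97 overlapped. The corresponding shares over all loci were 17.9% and 16.1%. The median over members was -0.03, near the -0.02 of all loci. A fit with a replicate block among protein-coding genes only, chosen after seeing the data, called 63 of 162 members and 2945 of 9986 genes. These included all 20 members named as highest or lowest in KO. Those 20 were picked by their differences in the same 4 libraries, so their being called adds no support. The pairing of replicates that it assumes is not given in the labels. Differences between the lines other than the loss of LSD1 cannot be told apart from it, since the number of clones is not stated. The values below are given for the members whose groups did not overlap, and they describe these 4 libraries.

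Fatty acid transport proteins held both ends. SLC27A2 stood at 39.8 and 31.6 FPKM in WT and at 13.3 and 14.5 in KO, that is 35.7 ± 5.75 and 13.9 ± 0.828 (SD, n = 2 each), a log2 difference of -1.29 (SE 0.19, limma adjusted p = 0.229). That was the smallest adjusted p of any member. SLC27A1 stood at 3.18 and 1.57 FPKM in WT and at 13.1 and 8.34 in KO, a difference of 1.81 (SE 0.37, limma adjusted p = 0.391). SLC27A3 was at 11.2 and 6.26 in WT and 5.64 and 2.80 in KO (-0.91). In the authors' deposited table, SLC27A2 was the 1 of 170 members called in KO replicate 1 and SLC27A1 the 1 of 169 called in KO replicate 2, beside 0.746% and 0.632% of loci with a test.

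Amino acid transporters on the higher side were SLC1A3, at 0.754 and 0.526 FPKM in WT and 2.39 and 4.16 in KO (1.35, limma adjusted p = 0.467), and SLC7A7, at 0.429 and 0.319 in WT and 1.94 and 2.10 in KO (1.14, limma adjusted p = 0.441). SLC15A3 was at 0.636 and 0.152 in WT and 1.62 and 1.12 in KO (0.78). These 3 and SLC27A1 were thus higher in KO libraries by value, and higher with MC_2580 than in DMSO by 0.79 to 1.27 log2 units. SLC1A3, SLC7A7 and SLC15A3 were under 1 FPKM in DMSO and in both WT libraries. They entered both contrasts only through the group where they were high, so the filters required them to differ in that direction. None of the 4 passed the test in KO, the MC_2580 contrast has no replicate, and the series lie in separate tables. SLC2A6 and SLC43A2 went the other way: SLC2A6 stood at 3.43 and 3.03 FPKM in WT and 0.983 and 1.40 in KO (-0.95), and SLC43A2 at 1.34 and 1.55 in WT and 0.430 and 0.578 in KO (-0.70). Both were higher in the combination than in any other treatment library.

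Of the mitochondrial carriers, SLC25A12, an aspartate/glutamate carrier, stood at 13.6 and 14.3 FPKM in WT and 25.2 and 26.3 in KO, a difference of 0.84 (SE 0.15, limma adjusted p = 0.315). SLC25A23, a calcium-dependent ATP-Mg/phosphate carrier, stood at 11.3 and 10.4 in WT and 18.6 and 19.3 in KO (0.75). The replicates of these 2 genes lay close together relative to the gap between genotypes. In the treatment series SLC25A12 ranged from 12.8 to 18.5 FPKM and SLC25A23 from 16.2 to 20.8, with MC_2580 at 12.9 and 19.5 and DMSO at 12.8 and 19.6. SLC25A20 did not separate the genotypes, at 7.16 and 8.67 in WT and 8.27 and 7.90 in KO.

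Other members lower in KO included SLC22A16 (10.5 and 13.4 FPKM in WT, 3.87 and 5.71 in KO, -1.17), which was also lowest in the combination. The zinc importer SLC39A4 stood at 3.35 and 3.32 in WT and 1.54 and 1.48 in KO (-0.79), and its relative SLC39A8 at 46.8 and 47.0 in WT and 33.6 and 32.8 in KO (-0.49). The lactate exporter SLC16A3 stood at 96.2 and 112 in WT and 73.7 and 64.6 in KO (-0.58), the reverse of its order under RA. Also lower were SLC37A2 (-0.64), SLC24A3 (-0.63) and the lysosomal amino acid transporter SLC36A1 (-0.59). On the higher side were SLC37A3 (1.37), the endosomal sodium/proton exchanger SLC9A7 (1.15) and the lysosomal nucleoside transporter SLC29A3 (0.74). Of those, SLC37A3 and SLC9A7 had wide replicates, at 1.18 and 0.296 FPKM and at 0.621 and 0.236 in WT. The glucose transporter SLC2A1 stood at 41.7 and 35.3 in WT and 29.3 and 29.8 in KO (-0.37).

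Of the members past 2-fold with RA, KO and WT overlapped for SLC2A5, SLC7A5, SLC3A2, SLC20A1, SLC25A29 and SLC29A1. They did not overlap for SLC16A3, given above, or for SLC1A4, at 22.4 and 22.5 FPKM in WT and 15.5 and 21.5 in KO (-0.28). SLC24A6 was at 17.5 and 14.6 in WT and 20.3 and 18.3 in KO (0.26). SLC44A1 stood at 14.5 in both WT libraries and 15.1 and 17.4 in KO (0.15), and SLC40A1 at 8.18 and 8.94 in WT and 7.89 and 7.96 in KO (-0.10).

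**Figure D4:**
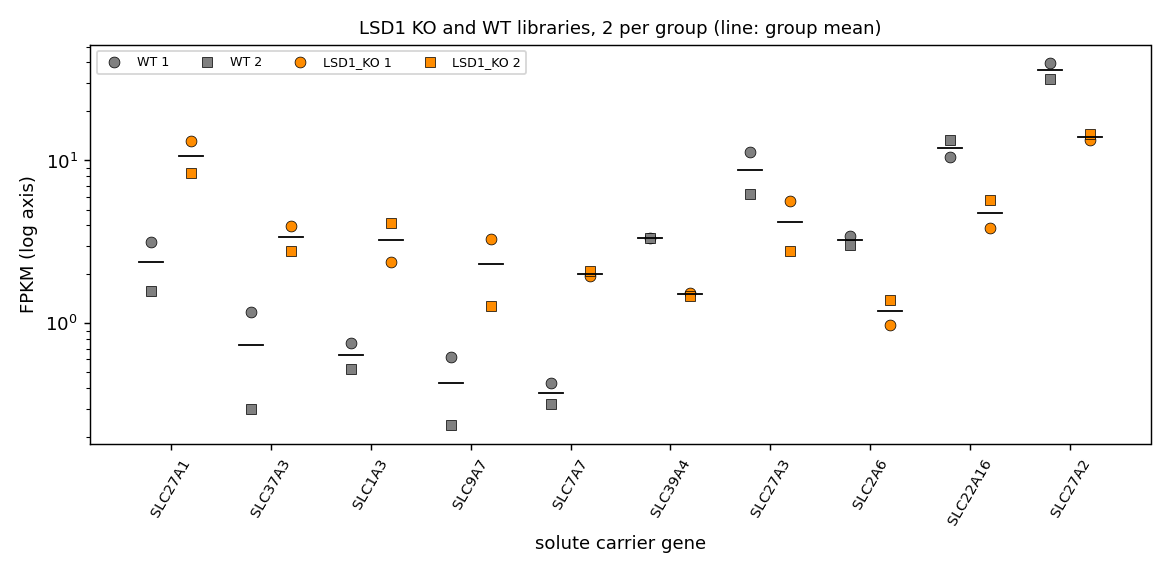
FPKM on a log axis in the 2 WT (grey) and 2 LSD1 KO (orange) libraries for 10 members whose groups do not overlap, with the group mean as a line; circles are replicate 1 and squares replicate 2. KO points lie above WT in the 5 genes on the left, such as SLC27A1, and below in the 5 on the right, such as SLC27A2; limma's adjusted p stayed at or above 0.229 for all members.

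Markers of other cell types and of maturation also differed in level between genotypes, with 0 of them called by limma at an adjusted p of 0.05. Summed over 8 lymphoid markers, the level was 135 and 84.8 FPKM in WT and 261 and 213 in KO, mostly from CD3D, while MS4A1 was at 0 in every library. EPCAM, the main contributor to 7 fibroblast and epithelial markers, took that sum from 11.0 and 12.9 FPKM in WT to 1.8 and 0.796 in KO. In the treatment series the lymphoid sum was 82.7 to 137 FPKM. The 9 markers of RA response and maturation summed to 65.4 FPKM in DMSO, 104 with MC_2580, 1480 and 2470 with RA 0.01 and 1 uM, and 3450 in the combination. Most of the gap between the last 2 was NCF1, at 1310 and 2250 FPKM. CYP26A1 (37.4 and 14.2), CEBPE (341 and 262), TGM2 (322 and 223) and RARB (7.51 and 1.66) had the opposite order, and the median of the 9 was 0.02. The same list summed to 80.2 FPKM in each WT library and to 139 and 113 in KO. CEBPE stood at 34.5 and 39.5 in WT and 75.2 and 69.4 in KO. ITGAM stood at 6.82 and 1.25 in WT and 29.0 and 9.40 in KO. CD38 of the same list was lower in KO, at 15.2 and 13.3 in WT and 8.4 and 9.44 in KO. Of the 6 markers of the list that were tested, KO lay above WT in 2 and below in 1, beside 17.9% and 16.1% of all loci. The granule protease gene CTSG was also lower in KO, at 47.9 and 111 FPKM in WT and 9.94 and 27.2 in KO. The part of these markers in the results on solute carriers was not tested. In bulk RNA a different share of cells in a state and a different amount of RNA per cell cannot be told apart.

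Other transporter genes give a setting for the family. Of 26 listed partners of solute carriers and carriers with other names that were matched, 2 of 21 tested were higher and 1 lower in the combination against DMSO. Over all loci, 9.05% were higher and 4.64% lower in that contrast, and whether such small counts differ from those shares was not tested. SLC9A3R1, a scaffold that binds sodium/proton exchangers, stood at 72.3 FPKM in DMSO, 92.2 with MC_2580, 181 and 200 with RA 0.01 and 1 uM, and 235 in the combination. SV2A, a vesicle protein with a transporter fold, gave 2.59, 1.79, 15.3, 15.0 and 11.1 FPKM. The water and glycerol channel AQP3 gave 3.87, 4.58, 0.670, 0.417 and 0.395 FPKM. BSG, the chaperone of the lactate exporter SLC16A3, differed less than its partner, at 259, 332, 233, 246 and 241 FPKM. C6orf192, now named SLC18B1, was near 0 in WT (0.0771 and 0.0521 FPKM) and stood at 7.29 and 6.27 in KO, with a difference of 2.87.

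Of 14 listed ATP-binding cassette transporters tested, 1 was higher and 1 lower in the combination against DMSO, with a median of -0.11. The shares over all loci were 9.05% and 4.64%, for this list and for the ATPases below. The higher one, ABCA7, a lipid transporter, stood at 0.682 FPKM in DMSO, 1.08 with MC_2580, 2.12 and 2.41 with the RA doses, and 4.87 in the combination. ABCB10, a transporter of the mitochondrial inner membrane, gave 37.6, 49.2, 16.9, 16.1 and 13.9 FPKM. The cholesterol exporter ABCA1 was highest with RA 1 uM, at 14.0 FPKM against 3.63 in DMSO and 5.30 in the combination. Of 24 ion-pumping ATPases tested, 0 were higher and 1 was lower in the combination, and the lower one, the sodium pump subunit ATP1B1, stood at 5.77 FPKM in DMSO and 2.09 in the combination. In KO against WT, limma called 0 genes of these 3 lists at an adjusted p of 0.05.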

How the data were processed

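RNA sequencing of 9 NB4 libraries was deposited as 2 tables. Per the file headers, the authors' values are FPKM in the layout of Cuffdiff, and each pair of libraries also has the authors' p-value and q-value. The submitters' processing notes list Cuffdiff, Cufflinks, TopHat2 2.0.10, TopHat 1.3.1, CASAVA 1.8 and build hg18. The annotation is not given in the sources used here. In the knockout table an offset of 0.001 FPKM was removed. Treatment values with a failed status, listed at 0, were treated as missing, which touched 3 members. Total reads are not given in the files, so no counting interval was computed.

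The members, classes and gene lists were chosen with earlier results of these data known. For KO against WT, limma-trend (limma 3.58.1, R 4.3.3) was fitted to log2(FPKM + 1) over every locus that averaged 1 FPKM or more in either group, and the Benjamini-Hochberg adjusted p was taken over all of them at 0.05. A treatment contrast took loci that reached 1 FPKM in either of its libraries and used a 2-fold criterion, without a test. Named genes were the 10 highest and 10 lowest members without overlap between KO and WT, the 5 highest and 5 lowest per treatment contrast among members of at least 5 FPKM, the 10 most abundant, the 3 on either side of the 1 FPKM limit, members by role, and examples of each class and list; some lower ones past the criterion were added after their values were seen. A few genes that the rule names are not reported here. Symbols of 172 members matched RefSeq. Locus starts count from 0 in the tables, and 1 was added. Alternatives were a pseudocount of 0.1, no filter, quantile normalization, a median of 0, protein-coding genes only, a replicate block and leaving out each library. Scripts were tested on simulated data and used pandas 2.3.3, numpy 2.4.6 and matplotlib 3.10.9 under Python 3.11.15.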

Additional observations from a re-analysis of the deposited data

How the results depend on the processing

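The number of members past 2-fold depended on the pseudocount. With 0.1 in place of 1 FPKM, 4 members passed for MC_2580 (1 before), 36 for RA 0.01 uM (19), 37 for RA 1 uM (21), 2 between the RA doses (1) and, in the combination set against RA 0.01 uM, 21 (13). A smaller pseudocount can only widen a ratio, so every member called with 1 FPKM had to be called with 0.1 as well. Every member called with 1 FPKM was also called after setting the median of all loci to 0, which shifted values by 0.06 log2 units or less. Against RA 0.01 uM that shift gave 12 higher and 4 lower members in the combination, where 12 and 1 were counted before. In KO against WT, limma called 0 members without a filter, with quantile normalization, with the smaller pseudocount, among protein-coding genes only, and on leaving out each library in turn (0 to 0). Those last fits assume for the remaining single library the spread of the other genotype. The replicate block alone also gave 0 members, 60 with an unadjusted p under 0.05. A replicate block among protein-coding genes only, chosen after seeing the data, gave 63 of 162 members, 27 higher and 36 lower, and called 2945 of 9986 genes. Deviations of same-numbered libraries correlated at 0.21 over loci in 2 pairs, which does not establish a pairing, and the cause of the larger count was not tested. That fit called 33 of the 56 named members it tested, among them SLC27A2, SLC22A16, SLC2A6, SLC27A1 and SLC1A3, all of which had missed the threshold before. These 5 and other named members were picked by their KO differences in the same libraries, so the count adds no support. Some named members near 0 changed sign. With quantile normalization the KO difference was 0.02 for SLC20A1 (-0.01 before) and -0.01 for SLC16A6 (0.08). Over the fits without 1 library it ranged from -0.36 to 0.34 for SLC20A1, -0.63 to 0.50 for SLC7A5, -0.63 to 0.33 for SLC3A2, -0.04 to 0.44 for SLC25A29, -0.39 to 0.43 for SLC2A3, -0.09 to 0.16 for SLC25A20, -0.05 to 0.21 for SLC16A6, -0.16 to 0.35 for SLC22A4, -0.19 to 0.40 for SLC12A4, -0.29 to 0.44 for SLC25A37, -0.35 to 0.15 for SLC25A6, -0.58 to 0.33 for SLC1A5, -0.10 to 0.33 for SLC29A1 and -0.86 to 0.13 for SLC19A1. Genes under 1 FPKM rest on few reads, and the treatment contrasts have no replicate.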
